A study of Mus musculus with 3 samples.

Results

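The mouse globin genes were examined in the chromatin of hematopoietic stem cells (HSCs), which do not make hemoglobin. The genes were chosen by name and were 7 of the 21728 protein-coding genes with distinct names on chromosomes 1 to 19 and X. The rule uses no measured value, though earlier results of these data were known when it was set. The beta-type genes Hbb-bt, Hbb-bs, Hbb-bh1 and Hbb-y lie on chromosome 7, and the alpha-type genes Hba-x, Hba-a1 and Hba-a2 on chromosome 11. Each cluster was taken with 80 kb either side, which gave 402 and 363 bins of 500 bp out of 5118358 in the genome (mm10). The cells came from bone marrow of wild-type female C57BL/6 mice (C57BL/6J in the study's methods) aged 8 weeks, given no treatment. They were enriched on c-Kit beads and sorted as LSK CD48- CD150+ CD34- (LSK: no lineage markers, Sca-1 and c-Kit present). DOGMA-seq measured open chromatin (ATAC), RNA and surface antibody tags in the same cells, and the labels of this library do not state how many mice it came from. There was 1 ATAC library, so no value below has a replicate and none is tested. Intervals are exact 95% intervals that cover counting error only.

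Hemoglobin is a tetramer of alpha-type and beta-type globin chains, and each kind is encoded by a cluster of genes in which some are used in the embryo and others after birth. Hbb-y and Hbb-bh1 are embryonic beta-type genes, Hba-x is the embryonic alpha-type (zeta) gene, and Hbb-bs, Hbb-bt, Hba-a1 and Hba-a2 are the adult genes. In red cell precursors the beta cluster is driven by the locus control region (LCR), a row of DNase hypersensitive sites upstream of Hbb-y bound by NF-E2, GATA1 and their partners. The alpha cluster is driven by the upstream elements R1, R2, R3, Rm and R4, most of which lie inside Nprl3, a neighboring gene with a housekeeping-type promoter.

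The LCR was taken from 1 kb beyond the start of Hbb-y to the olfactory receptor gene Olfr66 (chr7:103854501-103879000, 49 bins). R1, R2, R3, Rm and R4 were taken as the 2 kb centered 31, 26, 21, 12 and 8 kb upstream of the start of Hba-x, after the distances in their hypersensitive site names, so no measured value placed them. The sequences shown first are the 300 bases that hold the most fragment ends in the strongest LCR site, in Rm and in the strongest site beyond Hbb-bt, from the GRCm38.p6 genome, plus strand. Capitals mark 3 exact strings searched on both strands. They are GCTGAGTCA, bound by NF-E2, AGATAA, a form of the GATA factor site, and CCACCC, a form of the Kruppel-like factor box.
LCR strongest site, chr7:103860920-103861219: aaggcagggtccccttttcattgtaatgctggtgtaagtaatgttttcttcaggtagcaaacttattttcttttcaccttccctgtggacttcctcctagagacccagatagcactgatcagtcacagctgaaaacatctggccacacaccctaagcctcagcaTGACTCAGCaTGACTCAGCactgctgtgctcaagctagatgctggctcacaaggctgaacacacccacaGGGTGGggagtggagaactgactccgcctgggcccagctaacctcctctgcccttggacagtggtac
Rm, chr11:32265124-32265423: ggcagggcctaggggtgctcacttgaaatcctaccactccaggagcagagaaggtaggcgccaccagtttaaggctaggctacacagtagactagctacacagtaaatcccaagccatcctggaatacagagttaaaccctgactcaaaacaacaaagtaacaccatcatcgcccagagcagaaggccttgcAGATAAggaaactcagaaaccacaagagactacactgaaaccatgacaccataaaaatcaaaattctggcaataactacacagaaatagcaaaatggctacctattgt
site beyond Hbb-bt, chr7:103808996-103809295: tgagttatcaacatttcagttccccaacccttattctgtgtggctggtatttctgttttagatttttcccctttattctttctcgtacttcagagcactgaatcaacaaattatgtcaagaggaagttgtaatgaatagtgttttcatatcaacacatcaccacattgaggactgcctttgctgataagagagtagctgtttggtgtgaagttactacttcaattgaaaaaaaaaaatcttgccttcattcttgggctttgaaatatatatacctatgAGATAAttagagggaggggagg

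The LCR stretch held 2 NF-E2 strings on the minus strand, starting at 103861084 and 103861094 of chromosome 7, which is the tandem arrangement known for hypersensitive site 2 of the LCR. It also held 1 CCACCC string and no AGATAA string. Rm held 1 AGATAA string, in intron 1 of Nprl3, and neither of the others. The site beyond Hbb-bt also held 1 AGATAA string and neither of the others. Of all 300-base windows of the genome, 0.350% held the NF-E2 string, 19.3% held AGATAA and 15.7% held CCACCC. Only these exact letters were counted. The LCR stretch holds AGATAG and the site beyond Hbb-bt also holds TGATAA, so a missing string does not show that no GATA site is present. A string match describes the letters and not a bound factor.

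The promoters of the adult genes are shown next because their copies limit what the reads could tell. Each line gives the 120 bases upstream of the RefSeq start on the gene's strand (GRCm38.p6), and capitals mark the letters CCACCC on either strand, the GATA string AGATAA on either strand, the box with CCAAT on either strand, and the TATA-type string ATAAA on the gene's strand.
Hbb-bt, chr7:103813924-103814043, minus strand: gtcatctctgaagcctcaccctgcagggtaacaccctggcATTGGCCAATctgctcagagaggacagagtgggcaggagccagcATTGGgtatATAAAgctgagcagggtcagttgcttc
Hbb-bs, chr7:103827929-103828048, minus strand: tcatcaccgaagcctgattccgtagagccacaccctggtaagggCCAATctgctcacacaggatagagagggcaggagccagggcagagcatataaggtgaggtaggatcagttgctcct
Hba-a1, chr11:32283552-32283671, plus strand: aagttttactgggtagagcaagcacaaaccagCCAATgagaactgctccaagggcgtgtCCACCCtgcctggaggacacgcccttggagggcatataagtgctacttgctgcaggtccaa
Hba-a2, chr11:32296372-32296491, plus strand: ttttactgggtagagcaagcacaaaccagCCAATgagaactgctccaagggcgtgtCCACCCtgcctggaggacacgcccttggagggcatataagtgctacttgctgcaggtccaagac

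Hba-a1 and Hba-a2 had 0 mismatches over the 117 bases that could be set against each other with a shift of 3 bases. Hbb-bt and Hbb-bs had 31 mismatches over 119 bases, an identity of 73.9%. The CCAAT box, a common binding site of promoters, was present in each of these promoters, and 21.3% of the 32851 RefSeq promoters of the same length held it. The letters CCACCC were present in Hba-a1, Hba-a2, Hba-x and Hbb-y and in 16.4% of all promoters. Hbb-bt and Hbb-bs hold the letters CACCC with another base before them. Their lack of CCACCC thus does not show that they lack a CACCC box. No AGATAA string was found in the window for any of the 6 globin genes in the RefSeq table, against 4.36% of all promoters. Hba-x holds TGATAA, and other forms of the GATA site were not counted. ATAAA was found in Hbb-bt, Hbb-y and Hba-x, against 12.6%. Hbb-bs, Hba-a1 and Hba-a2 hold the letters ATATAAG, which the search for ATAAA missed. Hbb-bh1 was not in the table. These RefSeq starts differ by 0 to 200 bp from the GENCODE starts around which fragments were counted.

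Of 3757 barcodes called as cells, 3108 had more than 3000 fragments in peaks and were kept. They held 37137164 fragments on chromosomes 1 to 19 and X, with 3970 to 194134 per cell. A fragment was counted once in each 500-bp bin in which it had an end, which gave a genome mean of 9.99 and a median of 1 per bin. Values are given as a fold of that mean, and a bin or promoter at 4-fold or more is called open and any other closed. The promoter, 500 bp centered on the gene start, was open at 9 of 10 HSC markers, 4 of 5 megakaryocyte, 3 of 6 erythroid, 2 of 6 B cell, 1 of 6 granulocyte and 0 of 5 T cell markers, against 63.1% of all 21728 protein-coding promoters. The closed HSC marker was Ly6a, with 27 fragments, 2.70-fold. It is the gene of Sca-1, on which the cells were sorted, so a promoter called closed does not by itself mean an unused gene.

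None of the 7 globin promoters reached the 4-fold threshold by its count, whereas 63.1% of all protein-coding promoters did; the count of Hba-a2 cannot settle this, as given below. Together the 7 promoters held 42 fragments over 3108 cells, and their median was 0.400-fold of the genome mean against 17.9-fold for all genes. With the counts scaled for sequence that reads cannot place, also given below, the median was 1.07-fold. The plot of promoters and elements shows each promoter with its interval. The adult beta-type genes Hbb-bt and Hbb-bs had the highest counts of the 7. With fragments of at most 150 bp only, both were at 0.520-fold, Hbb-y, Hba-x and Hba-a1 at 0.260-fold and Hbb-bh1 and Hba-a2 at 0, counts too low to give an order. The adult alpha-type genes could barely be mapped, as given below, so their place in the order is not known.

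Hbb-bt, an adult beta-type gene (chr7:103812524-103813996), had 15 fragments at its promoter, 1.5-fold of the genome mean (0.840 to 2.48). Hbb-bs, the other adult beta-type gene (chr7:103826534-103828096), had 11 fragments, 1.10-fold (0.550 to 1.97). These counts were above those of 92.7% and 89.9% of all 500-bp bins but above those of 30.8% and 28.8% of promoters. The ratio of Hbb-bt to Hbb-bs was 1.36 with an interval of 0.585 to 3.28, so the 2 genes could not be separated at this depth.

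Hbb-bh1, an embryonic beta-type gene (chr7:103841637-103843164), had 4 fragments, 0.400-fold (0.109 to 1.02). Hbb-y, the embryonic gene nearest the LCR (chr7:103851749-103853216), had 2 fragments, 0.200-fold (0.0242 to 0.723). Hba-x, the embryonic alpha-type gene (chr11:32276400-32278116), had 6 fragments, 0.601-fold (0.220 to 1.31). Hbb-bt exceeded Hbb-bh1 by 3.75 times (1.19 to 15.5) and Hbb-y by 7.5 times (1.74 to 67.6), while its ratio to Hba-x, 2.50, had an interval of 0.917 to 7.86. Hbb-y, the nearest to the LCR, did not have a higher count than the other beta-type genes. The ratio of Hbb-bh1 to Hbb-y was 2.0 (0.287 to 22.1), so these embryonic genes could not be separated. An effect of the distance to the LCR was not tested.

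Hba-a1 (chr11:32283511-32284465) had 3 fragments, 0.300-fold (0.0619 to 0.878), and Hba-a2 (chr11:32296489-32297298) had 1 fragment, 0.100-fold (0.00253 to 0.558). These adult alpha-type genes are near-identical copies. In the 500 bp at the start, only 12% of 50-base words of Hba-a1 and 0% of those of Hba-a2 occur once in the genome. Over the whole gene the shares were 5.24% and 6.17%. The corresponding promoter share was 82.2% for both Hbb-bt and Hbb-bs, whose gene bodies were at 31% and 34.9%, and 100% for Hbb-bh1, Hbb-y and Hba-x.

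With the fragment lengths of the kept cells, 27.4% of the fragments that could end in the Hba-a1 promoter and 9.37% of those in the Hba-a2 promoter would have at least 1 read from a 50-base word found once. Dividing by these shares gave 1.09-fold for Hba-a1, with an upper limit of 3.20-fold, and 1.07-fold for Hba-a2, with an upper limit of 5.95-fold. The limit for Hba-a2 lies above the 4-fold threshold, so its count does not show whether that promoter is open or closed. For Hbb-bt and Hbb-bs the same step gave 1.67-fold and 1.32-fold, with upper limits of 2.75 and 2.35. Few deposited fragments were wholly ambiguous: 2 of 2187 fragments in the beta window and 3 of 9527 in the alpha window had no read that starts with a unique word, although 13.8% and 4.48% of the words there are not unique. Read pairs left out before deposit are not in these counts, which therefore do not measure how much ambiguity the copies caused. Fragments with 1 unique read of their 2 were common at the copies, with 3 of 4 in the 2 kb at Hba-a1, 7 of 10 at Hba-a2, 12 of 39 at Hbb-bt and 4 of 13 at Hbb-bs.

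Within 1 kb either side of the starts, the counts of the 4 successive 500-bp steps along the chromosome were 7, 14, 12 and 19 for Hbb-bt and 1, 6, 9 and 5 for Hbb-bs. They were 1, 4, 4 and 3 for Hbb-bh1, 0, 1, 2 and 4 for Hbb-y, and 2, 7, 10 and 12 for Hba-x. No step reached the threshold at any of these genes. Across the beta cluster the 80 bins that lie wholly between the ends of Hbb-bt and Hbb-y averaged 0.427-fold and 0 of them were open, against 3.05% of all bins. Some of the 80 can hardly be mapped, and the mean was not scaled for this. From chr7:103816001 to 103822000 only 2.6% to 38% of the words of a bin are unique. The bin across the 3' end of Hbb-bt (chr7:103812501-103813000), which reaches past the gene and is not among the 80, was open with 55 fragments, 5.51-fold (4.15 to 7.17).

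**Figure D1:**
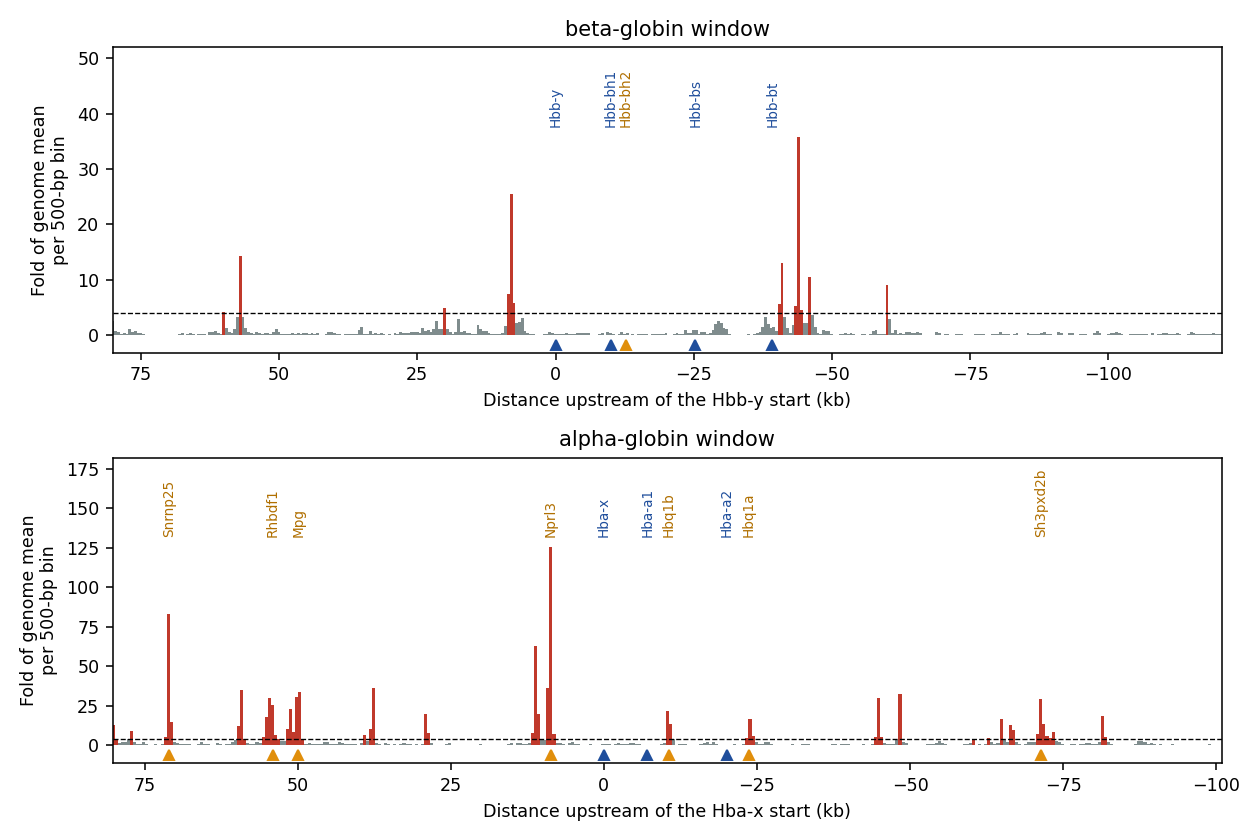
Fragments per 500-bp bin over the beta-globin window (top) and the alpha-globin window (bottom), as a fold of the genome mean, against the distance upstream of the Hbb-y or Hba-x start in kb. Red bars are bins at 4-fold or more (dashed line), grey bars all others. Triangles mark gene starts, blue for the 7 globin genes and orange for other genes, with olfactory receptor genes and Il9r not drawn. All 7 blue triangles sit among grey bars, and the tallest bars are the bin beyond Hbb-bt at 35.8-fold in the beta window and the Nprl3 promoter at 126-fold in the alpha window.

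The LCR was open at a single strong site and closed over most of its length. Its 49 bins held 776 fragments, a mean of 1.59-fold (1.48 to 1.70), against 0.576-fold over the 2 kb at the 4 beta-type promoters, a ratio of 2.75 (2.22 to 3.46). The size of the ratio depended on the setting: it was 6.06 with fragments of at most 150 bp, 28.2 between the strongest 500-bp bins and 1.98 with 500 bp at each start. Of the 49 bins, 4 were open and 32 were at or below the genome mean. The 4 open bins held 434 fragments, 55.9% of the total, and the other 45 averaged 0.761-fold.

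The strongest LCR bin (chr7:103861001-103861500, 8.03 kb upstream of Hbb-y) had 254 fragments, 25.4-fold (22.4 to 28.7), more than 99.4% of all bins. It holds the tandem NF-E2 strings shown above. Its neighbors on each side had 58 and 73 fragments, 5.81-fold and 7.31-fold. The 300 bases shown held 410 of the 597 fragment ends of this site, 68.7%. The fourth open bin, farther from Hbb-y (chr7:103873001-103873500), had 49 fragments, 4.91-fold (3.63 to 6.48).

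NF-E2 strings occurred in both open and closed bins of the LCR, with 1 of 3 bins with the string open against 3 of 46 without it, 6.52%. They were in 3 of its 49 bins, 6.12%, against 0.596% of all bins in the genome. The bin 6.03 kb upstream of Hbb-y, with 1 NF-E2 string, had 30 fragments, 3.00-fold, and the bin with the string 12.8 kb upstream had 7 fragments, 0.701-fold. The mean of the 3 bins was 9.71-fold and that of the other LCR bins 1.06-fold. In the whole genome 7.54% of bins with the string were open, against 3.02% of bins without it.

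**Figure D2:**
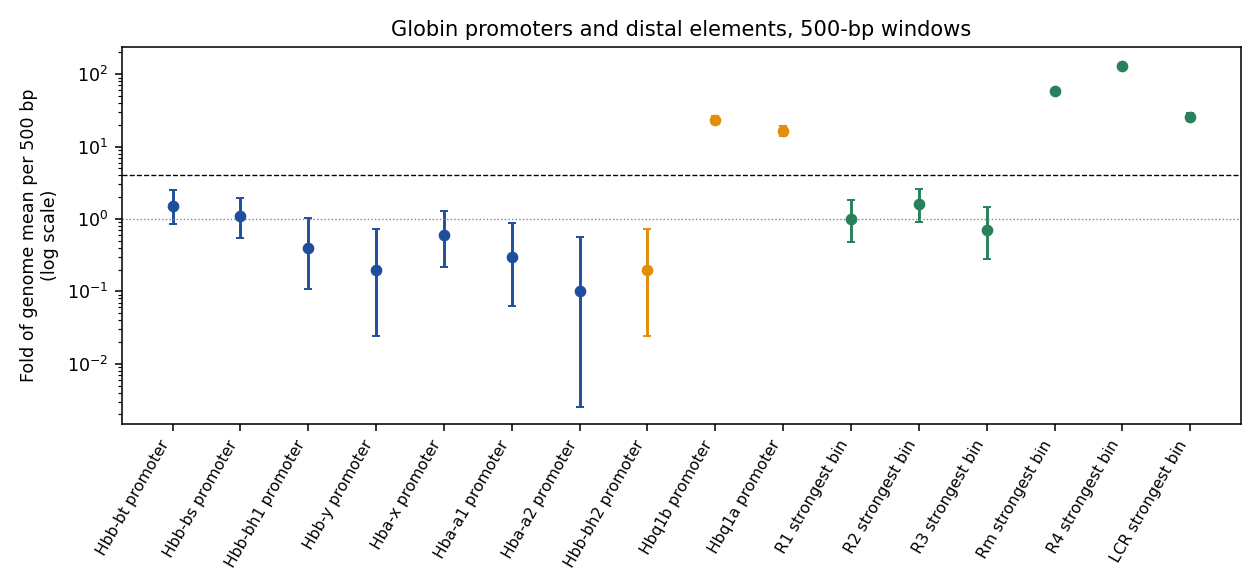
Fragments in 500-bp windows at globin promoters (blue, the 7 genes; orange, other globin genes of the clusters) and in the strongest 500 bp of each distal element (green), as a fold of the genome mean on a log axis. Bars are exact 95% Poisson intervals; the dashed line is the 4-fold threshold and the dotted line the genome mean. All 7 globin promoters and R1, R2 and R3 lie below the threshold, whereas Rm, R4 and the LCR lie above it at 58.3-fold, 129-fold and 25.4-fold. The strongest 500 bp of R4 contain the Nprl3 start, so that value cannot be told from the Nprl3 promoter.

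The alpha-globin upstream elements fell into closed and open groups. R1, R2 and R3, which stand 31, 26 and 21 kb upstream of Hba-x, were closed. R1 had 10, 7, 8 and 6 fragments in its 4 steps of 500 bp, a mean of 0.776-fold (0.527 to 1.10). R2 had 3, 3, 8 and 16, a mean of 0.751-fold (0.507 to 1.07), and R3 had 6, 2, 2 and 7, a mean of 0.425-fold (0.248 to 0.681). Their densities were 1.00, 0.968 and 0.548 times that of the 2 kb at the Hba-x start, and each interval included 1.

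Rm was the open element of the set that can be told from a promoter. Its 4 steps had 10, 11, 65 and 582 fragments, a mean of 16.7-fold (15.5 to 18.0) and 21.5 times the density at the Hba-x start (15 to 32.0). On the genome grid its strongest bin (chr11:32265001-32265500, 11.2 kb upstream of Hba-x) had 631 fragments, 63.2-fold (58.3 to 68.3), and the next site of the alpha window without a gene start reached 36.2-fold. The 300 bases shown held 1037 of the 1421 fragment ends of this site, 73.0%.

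R4 could not be separated from the promoter of Nprl3. Its 2 kb contain the Nprl3 start at 32267707, and its steps had 1288, 117, 17 and 17 fragments, so that the 2 steps away from that start were at 1.70-fold each. Pooled over the 5 elements, the mean was 10.9-fold against 0.384-fold at the 3 alpha-type promoters, a ratio of 28.5 (21.3 to 39.0). It was 111 with fragments of at most 150 bp, 57.1 between the strongest 500-bp bins and 14.8 when scaled for duplicated sequence. Without bins within 1 kb of the Nprl3 start the ratio was 11.7 (8.69 to 16.1), and with R1, R2 and R3 alone against Hba-x, the alpha-type promoter whose sequence is unique, it was 0.839 (0.547 to 1.32). The last 2 were chosen after the values were seen.

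**Figure D3:**
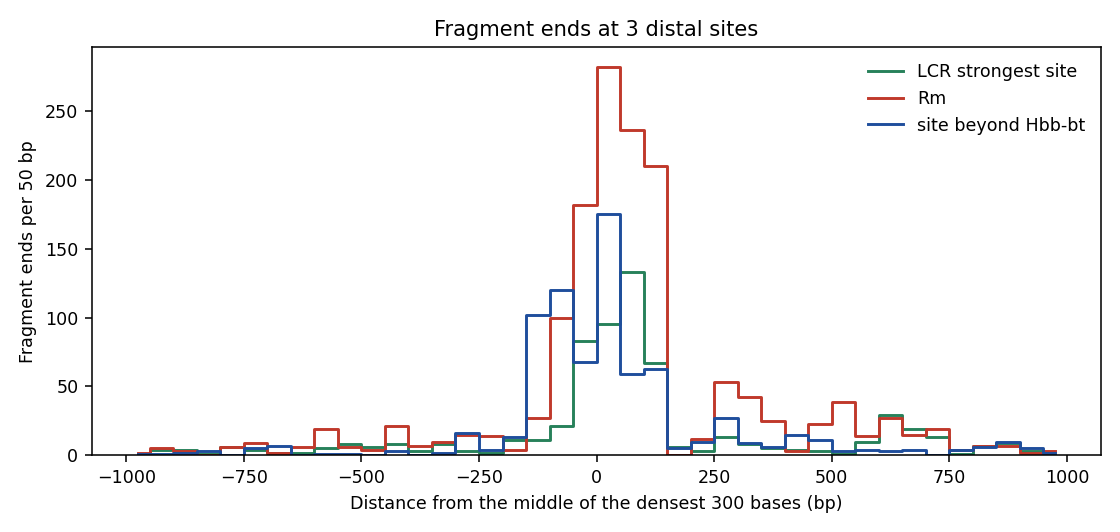
Fragment ends of the kept cells per 50 bp, against the distance in bp from the middle of the 300 bases shown for the strongest LCR site (green), Rm (red) and the site beyond Hbb-bt (blue). Each line is 1 site; the highest steps are 133 ends for the LCR site, 282 for Rm and 175 for the site beyond Hbb-bt, and these lie within 150 bp of the middle.

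Further sites in Nprl3 lay outside the windows of R1 and R2. A bin 37.6 kb upstream of Hba-x (chr11:32238501-32239000, intron 8 of the principal Nprl3 transcript) had 362 fragments, 36.2-fold (32.6 to 40.2). A bin 29.1 kb upstream (chr11:32247001-32247500, intron 6) had 196 fragments, 19.6-fold (17.0 to 22.6). The element windows reach 1 kb either side of the named distance, so an element placed farther than that from its name would be missed.

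The theta genes Hbq1b and Hbq1a, which lie beside Hba-a1 and Hba-a2 and whose product is of unsettled function, were open. Hbq1b (chr11:32286965-32287784) had 231 fragments at its promoter, 23.1-fold (20.2 to 26.3), and Hbq1a (chr11:32300069-32300873) had 165, 16.5-fold (14.1 to 19.2). The ratio of Hbq1b to Hbq1a was 1.40 (1.14 to 1.72). Of the 50-base words of the Hbq1b promoter 79.8% are unique, and the share for Hbq1a was within 1 percentage point of this, so some of their reads could not be placed.

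Each theta gene carries the same pair of matches to a CTCF-type string (CC, any 3 bases, AGG, any base, GGC). CTCF binds insulators and loop anchors. The 40 bases at each match are shown because they are the same in both copies, with the string in capitals, on the strand of the match and from GRCm38.p6.
Hbq1b upstream, chr11:32286920-32286959, minus strand: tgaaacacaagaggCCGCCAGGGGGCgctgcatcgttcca
Hbq1a upstream, chr11:32300025-32300064, minus strand: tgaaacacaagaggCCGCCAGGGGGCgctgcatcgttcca
Hbq1b exon 2, chr11:32287273-32287312, plus strand: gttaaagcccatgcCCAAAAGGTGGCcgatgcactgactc
Hbq1a exon 2, chr11:32300378-32300417, plus strand: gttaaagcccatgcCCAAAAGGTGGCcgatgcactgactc

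In the alpha window 20 of 363 bins held this string, 5.51%, against 1.18% of all bins. Of those 20 bins, 10 were open, against 12.8% of the alpha bins without it and 18.3% of bins with it in the genome. In the beta window 6 of 402 bins held it and 2 were open. In the LCR 0 of 49 bins held it.

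The 2 open bins with the string in the beta window lay on the far side of Hbb-bt from the LCR, toward the olfactory receptor gene Olfr67. The bin at chr7:103807001-103807500 had 104 fragments, 10.4-fold (8.51 to 12.6), and that at chr7:103793001-103793500 had 91, 9.11-fold (7.33 to 11.2). Between them and Hbb-bt stood the strongest bin of the beta window (chr7:103809001-103809500), with 358 fragments, 35.8-fold (32.2 to 39.7). It holds an AGATAA string and no CTCF-type string, and its site exceeds the strongest LCR bin. A bin directly beyond the 3' end of Hbb-bt (chr7:103812001-103812500) had 130 fragments, 13-fold (10.9 to 15.5).

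On the LCR side, beyond Olfr66, Olfr64 and Olfr65, a bin (chr7:103910001-103910500) had 143 fragments, 14.3-fold (12.1 to 16.9). In all, the beta window had 13 open bins of 402, 3.23%, against 3.05% of all bins, in 8 sites with no protein-coding start in any. The 9 olfactory receptor genes of the window had 1 to 8 fragments at their promoters and none was open. The share of open bins was thus close to that of the genome, with the open bins in a few places.

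The alpha window had 54 open bins of 363, 14.9%, in 21 sites, of which 14 held no protein-coding start. Of 6 non-globin genes there, 5 had an open promoter, against 63.1% of all promoters. Nprl3, a subunit of the GATOR1 complex that restrains mTORC1, had 1254 fragments, 126-fold. Snrnp25, a part of the minor spliceosome, had 818, 81.9-fold. Mpg, a DNA repair glycosylase, had 463, 46.3-fold, Sh3pxd2b, an invadopodia scaffold, 305, 30.5-fold, and Rhbdf1, an inactive rhomboid, 215, 21.5-fold. Il9r, the interleukin 9 receptor, had 12 fragments, 1.20-fold, and was closed. The bins between Hba-x and Hba-a2 averaged 1.70-fold, with 2 of 41 open, both at Hbq1b. The mean bin of chromosome 11 stood at 1.82-fold of the genome mean and that of chromosome 7 at 1.21-fold. Against the mean of its own chromosome Hba-x was at 0.330-fold and Hbb-bt at 1.24-fold, and 36 bins of the alpha window and 11 of the beta window were open.

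Fragments of at most 150 bp, which fit between nucleosomes, made up 46.4% of all fragments of the kept cells. Their share was 63.4% (57.1 to 69.3) in the strongest LCR bin, 63.7% (59.8 to 67.5) in the strongest Rm bin and 67.9% (62.8 to 72.7) in the strongest bin beyond Hbb-bt. It was 37.7% (31.2 to 44.5) in the strongest bin at Hbq1b, 43.6% (35.9 to 51.6) at Hbq1a and 26.5% (14.9 to 41.1) in the fourth open LCR bin. The strongest bins of the LCR, of Rm and beyond Hbb-bt were above the share of the whole library, while the fourth open LCR bin and the theta bins were not.

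In single cells each of these sites was seen in a minority of cells. The strongest Rm bin had a fragment in 534 of 3108 cells, 17.2% (15.9 to 18.6), and the strongest LCR bin in 219, 7.05% (6.17 to 8.00). The 7 globin promoters together had a fragment in 41 cells, 1.32% (0.948 to 1.78), against 995 cells, 32.0%, for the Nprl3 promoter alone. Of the 219 cells at the LCR bin, 186 had 1 fragment, 31 had 2 and 2 had 3. A fragment in the LCR or in any of the 5 alpha elements, R4 with the Nprl3 start included, was found in 52.7% of cells (51.0 to 54.5).

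The shares differed with depth, which was read in 4 groups of 775 to 778 cells ordered by fragments per cell. From the group with the fewest fragments to the group with the most, the share with a fragment in the strongest Rm bin went from 12.6% (10.4 to 15.2) to 21% (18.1 to 24), and in the strongest LCR bin from 4.50% (3.16 to 6.21) to 9.13% (7.20 to 11.4). Per 1000000 fragments of the same cells the counts were 19.3 and 14.2 at Rm and 6.87 and 5.99 at the LCR bin, so the share went up and the density did not. The 7 promoters went from 0.772% (0.284 to 1.67) to 1.67% (0.893 to 2.84), with intervals that overlap.

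**Figure D4:**
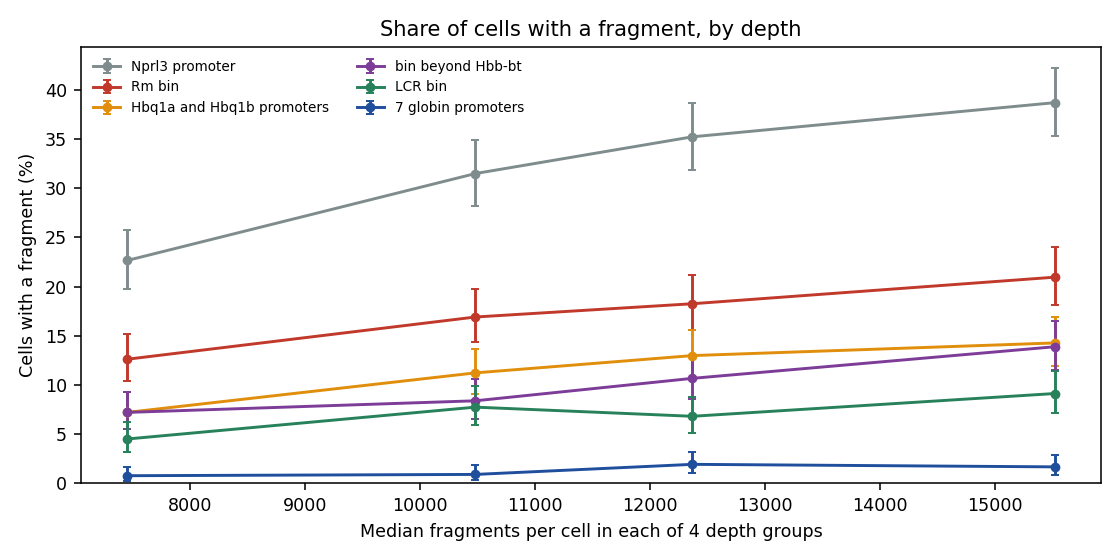
Share of cells with at least 1 fragment at each site, in 4 groups of cells ordered by fragments per cell, against the median fragments per cell of the group. Bars are exact 95% binomial intervals. The 7 globin promoters together stay at 0.772% to 1.93% of cells, below the LCR bin, the bin beyond Hbb-bt, the theta promoters and Rm in every group.

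The genes that act on the clusters were mostly open at their promoters, unlike the globin genes. These lists are read against the 63.1% of all promoters that were open. Of 18 globin regulators 15 were open, with a median of 74.1-fold. Lyl1, a partner of LMO2, was highest at 376-fold, and Sox6, a repressor of embryonic globin genes, had 0 fragments at its start. Lmo2 itself was below the threshold at 2.10-fold (1.30 to 3.21). Gata1, the erythroid master factor, was at 1.80-fold (1.07 to 2.85), Klf1, which binds CACCC boxes, at 5.81-fold (4.41 to 7.51), and Nfe2, the erythroid subunit of NF-E2, at 50.0-fold (45.8 to 54.6).

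Of 12 heme synthesis genes 10 were open, with a median of 85.1-fold and Slc25a38, a mitochondrial glycine carrier, highest at 125-fold. Alas2, the erythroid enzyme of the first step, had 3 fragments, 0.300-fold, whereas its widely used counterpart Alas1 was at 90.2-fold. Slc25a37, the mitochondrial iron carrier, had 0, but its start lies in a run of 125.5 kb without any fragment, so that value cannot be read. Of 18 red cell genes found 10 were open, with a median of 5.96-fold, Tfrc, the transferrin receptor, highest at 239-fold and Car1, a carbonic anhydrase, lowest with 0. Of 12 genes of other tissues 2 were open, with a median of 0.851-fold, Neurod1 highest at 9.31-fold and Alb, the liver albumin gene, lowest at 0.100-fold. Of the other globin genes the 6 found had 3 open, Hbq1b, Hbq1a and Cygb, which encodes cytoglobin, and Hbb-bh2 was lowest at 0.200-fold.

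A promoter count below the threshold with an open bin upstream was found at 6 of the 7 globin genes, which share 2 upstream bins. The same was found at 3408 of the 8021 protein-coding genes with a promoter below the threshold, 42.5%. For each protein-coding gene the promoter count was paired with the strongest bin 5 to 40 kb upstream. Hbb-bt had no open bin in that range, its highest holding 26 fragments, 2.60-fold. The highest was the same LCR bin, with 254 fragments, for Hbb-bs, Hbb-bh1 and Hbb-y, and the Nprl3 promoter for the alpha-type genes. Of all genes 61.0% had a lower strongest upstream bin than the LCR bin, and 88.0% a lower one than the Nprl3 promoter. For Hbb-bs the values were 11 and 254 fragments, and the nearest genes on the log2 scale, with 0.5 fragments added, were Sfta2, Ccl22 and Gsdma, each with 11 at the promoter and 247, 246 and 245 upstream. In all, 153 of the 21728 genes were within 0.5 log2 units on both measures. For Hba-a1, with 3 and 1254, the nearest were Gm36028, Casc3 and Atp6ap1l, but its upstream bin is the Nprl3 promoter and its own promoter can hardly be mapped.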

How the data were processed

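The ATAC library of sorted HSCs was measured with RNA and antibody-tag libraries from the same cells. Per the file headers, Cell Ranger ARC 2.0.2 and an mm10 reference made the files, and the authors deposited, as counts, each fragment with its read pairs and the reads and fragments per barcode. The first read of a pair had 50 bases and the second nearly as many. The sources used here do not say whether fragment ends were shifted for the transposase. Gene starts were those of the principal transcript in GENCODE vM21. Python 3.11.15 with NumPy 2.4.6, pandas 2.3.3, SciPy 1.17.1 and matplotlib 3.10.9 was used, and the counting was tested on simulated data.

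Kept cells were called by the pipeline and had more than 3000 fragments in peaks. The study's further filters were not applied, apart from an alternative that requires more than 15% of fragments in peaks, and doublets were not called. Of the read pairs of kept cells 7.18% had low mapping quality, and 69.1% were duplicates. A word of 50 bases counted as unique when it occurred once, on either strand, in the primary GRCm38 assembly. A fragment can count in 2 neighboring bins, and intervals treat these as separate. PCR reads are not independent molecules.

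The members, lists and tests were chosen with earlier results of these data known. Named were all 7 genes, the 5 elements, the open LCR bins, neighbors within 80 kb with an open promoter, the 3 genes nearest to Hbb-bs and Hba-a1, and the highest and lowest gene of each list; other genes and sites, such as Gata1, Alas1, Cygb, Il9r and the bins beyond Hbb-bt, were chosen after their values were seen. The alternatives were other cell minimums, other ways to count fragments, 2-fold and 8-fold thresholds, the mean of the own chromosome, other windows and a correction for duplicated sequence. RNA per gene and antibody tags were not used here.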

Additional observations from a re-analysis of the deposited data

Results flagged for a closer look

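Barcodes not called as cells are outside the comparisons above, and each of the 8 regions counted had more than 3 fragments in them, the floor set for this list. The 601292 such barcodes held 3525361 fragments, a mean of 0.938 per 500-bp bin. The strongest LCR bin had 10 fragments there, 10.7-fold of that mean (5.11 to 19.6). The strongest Rm bin had 28, 29.8-fold (19.8 to 43.1), and the strongest bin beyond Hbb-bt had 22, 23.5-fold (14.7 to 35.5). The Hbq1a and Hbq1b promoters together had 24, 12.8-fold (8.20 to 19). In the kept cells the same sites stood at 25.4-fold, 63.2-fold, 35.8-fold and 19.8-fold. The 7 globin promoters had 8 fragments in barcodes not called, 1.22-fold (0.526 to 2.40). The whole LCR had 45, 0.979-fold (0.714 to 1.31), R1, R2 and R3 together had 16, 1.42-fold (0.812 to 2.31), and the Nprl3 promoter had 67, 71.4-fold (55.3 to 90.7).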

How the results depend on the processing

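No paired analysis was possible because there is 1 ATAC library, and no replicate could be left out. No globin promoter was open under any of the 13 alternatives run for that count, of which the one for duplicated sequence covers 5 promoters, without Hba-a1 and Hba-a2. The ratio of the LCR to the beta-type promoters, 2.75, stayed above 1 in all 12 of its alternatives; it was 6.06 with fragments of at most 150 bp, 28.2 with the strongest 500-bp bins and 1.98 with 500 bp at each start. The alpha-type ratio, 28.5, was 111, 57.1 and 32.8 under the same 3 settings and 14.8 when scaled for duplicated sequence. Settings chosen after seeing the data gave 11.7 without bins within 1 kb of the Nprl3 start, 14.1 with Hba-x as the only promoter, 1.70 with R1, R2 and R3 only, and a reversed ratio of 0.839 with both of these choices. The pooled alpha-type ratio thus rests on Rm and R4. The 67 open bins of both windows became 119 at 2-fold and 40 at 8-fold, and were 47 against the mean of the own chromosome. The share of cells with a fragment at the elements, 52.7%, was 45.7% in all called cells, 61.8% in the 550 cells with more than 10000 fragments in peaks, 36.9% with fragments of at most 150 bp and 47.6% with fragments of at least 2 read pairs. The 7 promoters had counts of 1 to 15, so their intervals are wide, and duplicated sequence limits Hba-a1 and Hba-a2. The cause of each change was not tested.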

Other observations

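Cells with a fragment in the strongest LCR bin had one in the strongest Rm bin in 20.1% of cases (15 to 26, 219 cells), against 17.0% (15.6 to 18.4, 2889 cells) for the rest. Among the 778 cells with the most fragments the shares were 31% (20.5 to 43.1, 71 cells) and 19.9% (17.1 to 23.1, 707 cells), with intervals that overlap. For the Nprl3 promoter in the same cells they were 43.7% (31.9 to 56.0) and 38.2% (34.6 to 41.9). Cells of 1 library are not replicates, and no test was run.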
